A study of Mus musculus with 2 samples.

Results

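Inflammatory neutrophils, a working name for the neutrophils richest in transcripts of Csf1, Ccrl2, Fgl2, Hist1h2bc and Cd300c2, were 556 of 2779 neutrophil barcodes with an assigned treatment group, in a library of 9591 barcodes (14421 in both libraries of the series). A barcode stands for 1 cell, and its unique molecular identifiers (UMIs) count its captured transcripts. Neutrophils were the 2985 barcodes with at least 10% of their gene UMIs from S100a8 and S100a9, the calprotectin subunits. Each was given the treatment group of the antibody hashtag with the most UMIs, where these were at least 10 and at least 3 times the next, and 206 neutrophils without such a hashtag were left out. The 20% with the largest share of gene UMIs from the 5 genes, called the score, were taken as inflammatory neutrophils. The score is a range and not a discrete type. The 3 cells just inside the cut had 0.132225%, 0.13224% and 0.132661% of their UMIs from the 5 genes, and the 3 just outside had 0.132075%, 0.131961% and 0.131891%. Within 10% of the cut lay 58 cells inside and 61 outside, with Il1b at 2882 and 2495 CPM (UMIs of a gene for every 1000000 gene UMIs).

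The study asked how CBL0137, a small molecule that binds DNA and traps the histone chaperone FACT, changed the leukocytes of BALB/cAnNCrl mice carrying liver metastases of 4T1, a mouse mammary carcinoma line. Vehicle or CBL0137, at a low or a high dose, was infused through the hepatic artery, and cells were taken 5 days afterwards. The 3 groups were marked with hashtags A0301 (vehicle), A0305 (low dose) and A0310 (high dose) and run together in 1 library labelled liver (79585807 gene UMIs, median 4673 per barcode) and 1 labelled spleen (35672251 gene UMIs, median 3368.5). The assignment of A0305 to the low dose rests on the sample labels, since the methods list its barcode but speak only of vehicle or CBL0137 and name A0301 and A0310 for staining. Each group was 1 pool of 2 mice, the labels call the cells leukocytes while the methods describe enrichment on CD11b beads, and all groups carried tumors, so a tumor-free level was not measured. No group has a replicate pool, so no test or p-value is given and the 95% intervals cover counting error only.

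The hashtag barcodes are shown because they alone carry the treatment of each cell. They are printed 5′ to 3′ from the deposited feature reference, all in capitals because the whole barcode is read.
A0301, vehicle: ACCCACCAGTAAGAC
A0305, low dose: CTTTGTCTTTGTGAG
A0310, high dose: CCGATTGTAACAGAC

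Neutrophils mature from granule-filled precursors, and as they leave the marrow they lose transcripts of granule proteins such as Camp, Ngp and Ltf and gain those of receptors and inflammatory mediators. Interleukin-1 beta, encoded by Il1b, is made as a precursor and cut by inflammasome caspases, and it drives fever, neutrophil recruitment and emergency granulopoiesis. Of the 5 score genes, Csf1 encodes the macrophage growth factor M-CSF, Ccrl2 a receptor that binds chemerin without classical signaling, Fgl2 a fibrinogen-like protein with membrane-bound prothrombinase and secreted regulatory forms, Hist1h2bc a histone H2B, and Cd300c2 an activating receptor of the CD300 family.

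The score genes lie on 5 chromosomes of the mouse build GRCm38: Csf1 at chr3:107741048-107760469, Ccrl2 at chr9:111054486-111057519, Fgl2 at chr5:21372642-21378374, Hist1h2bc at chr13:23684199-23692908 and Cd300c2 at chr11:114996721-115001880. Il1b lies at chr2:129364570-129371139. RefSeq promoter sequences (GRCm38.p6) were matched for 5 of these 6 genes, Hist1h2bc being the other. The 250 bases before the annotated start of Csf1 and of Il1b are shown. The window of the score gene Csf1 holds a match to the NF-kB-type motif described below, and Il1b had the highest level of the interleukin-1 genes described later. Both are on the minus strand and printed 5′ to 3′, from chr3:107760470-107760719 and chr2:129371140-129371389. Capitals mark a match, on either strand, to an NF-kB-type site spelled GGGA, then 2 bases of any kind, then TTCC.
Csf1: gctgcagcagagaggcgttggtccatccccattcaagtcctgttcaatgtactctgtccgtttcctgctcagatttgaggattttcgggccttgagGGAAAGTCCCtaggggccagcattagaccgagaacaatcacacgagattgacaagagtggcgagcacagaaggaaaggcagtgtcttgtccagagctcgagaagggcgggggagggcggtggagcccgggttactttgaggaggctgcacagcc
Il1b: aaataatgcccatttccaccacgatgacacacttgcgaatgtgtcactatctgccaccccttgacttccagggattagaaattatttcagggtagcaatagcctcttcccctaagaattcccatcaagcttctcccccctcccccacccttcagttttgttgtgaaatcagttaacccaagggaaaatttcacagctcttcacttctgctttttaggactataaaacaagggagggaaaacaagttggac
The Csf1 match begins at base -154 from the start, and these letters occur in 1.21% of 32851 promoter windows of that length. The Il1b window holds neither these letters nor TGANTCA, an AP-1-type site found in 6.75% of windows, which says only that they are not in this window. The window of the score gene Fgl2, which is not printed, holds 1 AP-1-type match, at bases -16 to -10.

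The tissue labels of the 2 libraries go against their transcripts, and also against the names of the deposited files, which call the library labelled liver spleen and the library labelled spleen liver. In the library labelled liver, from which these cells come, the hepatocyte genes Alb, Apoa1, Apoa2 and Ttr summed to 0.0754 CPM and the Kupffer cell gene Clec4f had no UMI, where 3 counts would be 0.0377 CPM. In the library labelled spleen the same values were 94.8 and 129 CPM. Stab2, of liver sinusoidal endothelium, was at 0.314 and 40.0 CPM, while the follicular B cell genes Cr2 (34.7 and 7.85 CPM) and Fcer2a (17.8 and 5.97 CPM) ran the other way. The libraries are therefore named by their labels only, and no tissue is read from them. They shared 15 barcodes, 1 of them an inflammatory neutrophil here.

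Inflammatory neutrophils were found in the vehicle and low dose groups and not in the high dose group of the library labelled liver. They were 320 of 1265 vehicle neutrophils (25.3%, interval 22.9 to 27.8), 236 of 1277 at the low dose (18.5%, 16.4 to 20.7) and 0 of 237 at the high dose (0 to 1.54, where 3 counts would be 1.27%). The high dose minus vehicle difference was -25.3 percentage points, with a combined interval of -27.8 to -21.4. The low dose minus vehicle difference was -6.82 points, with a combined interval of -11.4 to -2.20. A combined interval subtracts the opposite vehicle limit from each limit of the dose group. It is therefore wider than an interval made for the difference itself. The highest score of any high dose neutrophil was 0.0732%, and their median was 0.00559%, against 0.0294% in vehicle and 0.0241% in low dose neutrophils. In the plot of scores by group, the high dose cells therefore all lie under the cut.

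**Figure D1:**
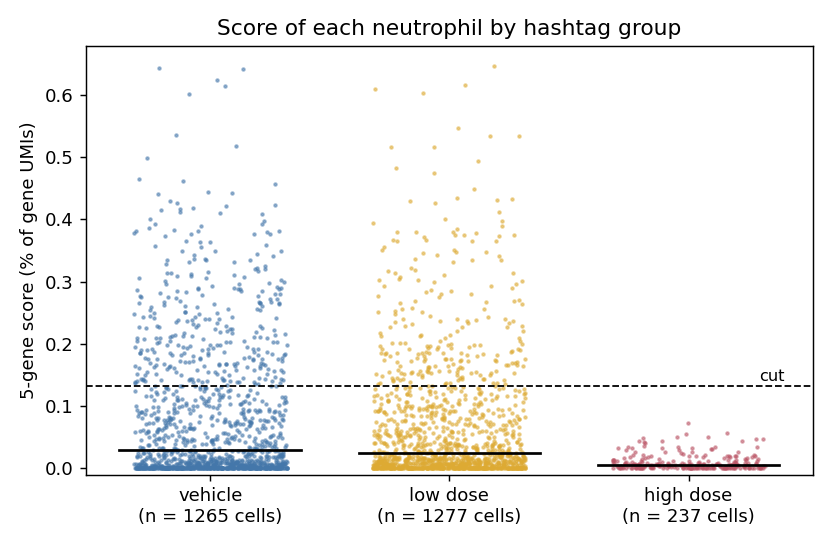
Score of each neutrophil, as percent of gene UMIs from Csf1, Ccrl2, Fgl2, Hist1h2bc and Cd300c2, by hashtag group in the library labelled liver; each point is a cell, black lines are medians and the dashed line is the cut of 0.132%. All 237 high dose cells lie under the cut, with a highest value of 0.0732%.

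Neutrophils as a whole were fewer at the high dose, and those that were found had more UMIs per cell. They made up 37.6% of vehicle barcodes, 37.5% of low dose barcodes and 11.1% of high dose barcodes. Inflammatory neutrophils had a median of 3185 UMIs (vehicle) and 3467 UMIs (low dose), other neutrophils 11507 and 10128, and high dose neutrophils 20843. Between 2214.5 and 4841.5 UMIs, the 10th to 90th percentile of the inflammatory neutrophils, lay 401 vehicle neutrophils (60.6% of them inflammatory), 372 low dose neutrophils (54.0%) and 2 high dose neutrophils, of which 0 were. Depth and membership therefore cannot be told apart at the high dose in this library. With each cell thinned to 500 UMIs before scoring, 7 of 237 high dose neutrophils (2.95%) were among the top 20%, beside 24.5% of vehicle and 18.7% of low dose neutrophils.

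In 14 of 15 alternative settings the low dose difference stayed negative and within its combined interval. The exception was a higher S100a8 and S100a9 limit. With the limit at 20% of UMIs in place of 10%, the share was 22.04% in vehicle (199 of 903) and 22.05% in low dose neutrophils (228 of 1034). At the high dose it was 1 of 205. That limit is above the inflammatory neutrophils' own medians for these genes, 16.6% in vehicle and 18.3% at the low dose. Its top cells numbered 428, with 202 of them among the 556. With the limit at 5% the shares were 25.8% in vehicle and 17.4% at the low dose.

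The same rule in the library labelled spleen gave 212 of 1062 neutrophils. They were 59 of 296 vehicle neutrophils (19.9%, 15.5 to 24.9), 148 of 554 at the low dose (26.7%, 23.1 to 30.6) and 5 of 212 at the high dose (2.36%, 0.770 to 5.42). The high dose minus vehicle difference was again negative, at -17.6 points (combined interval -24.2 to -10.1). The low dose minus vehicle difference was instead 6.78 points, with a combined interval of -1.87 to 15.1. That interval includes 0, but combined intervals are wide, so it does not decide whether these shares differ. Of high dose neutrophils in that library, 22 lay in the depth range of its inflammatory neutrophils, and 3 of these (13.6%, 2.91 to 34.9) were inflammatory, against 53.2% of 94 vehicle cells.

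**Figure D2:**
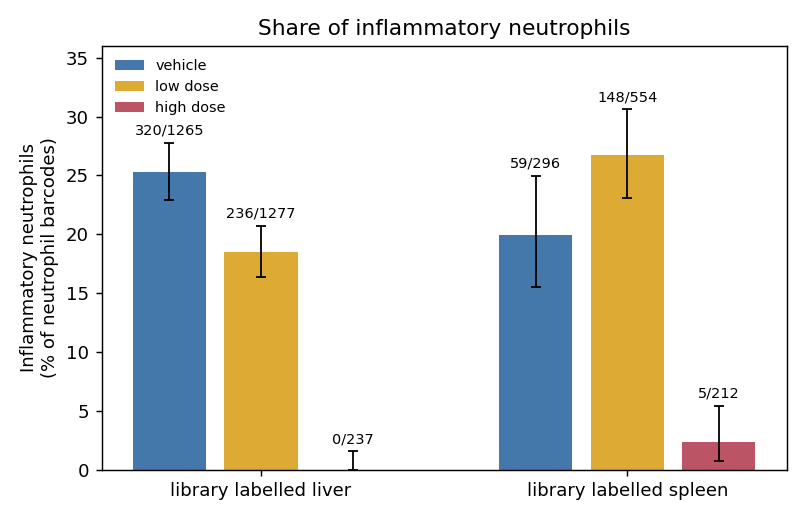
Inflammatory neutrophils as percent of neutrophil barcodes by hashtag group in each library; bars start at 0, whiskers are exact 95% binomial intervals for counting error and the fractions are cells. The high dose bars are the lowest in both libraries (0 of 237 and 5 of 212), while the low dose bar is below the vehicle bar in one and above it in the other.

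The 5 score genes chose these cells, so their levels are a description. In vehicle inflammatory neutrophils, Csf1 was at 307 CPM (275 to 342), Ccrl2 at 156, Fgl2 at 573, Hist1h2bc at 693 and Cd300c2 at 650. In other vehicle neutrophils they were at 18.3, 5.29, 39.4, 33.3 and 44.9 CPM. The genes were not all seen in the same cell. Of the 556 cells, 303 had a Csf1 UMI, 135 a Ccrl2 UMI, 455 an Fgl2 UMI, 431 a Hist1h2bc UMI and 445 a Cd300c2 UMI, and 27 had all 5. The median was 7 UMIs of the 5 genes in a vehicle cell and 8 in a low dose cell.

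When cells were chosen on a random part of their UMIs and read from the rest, the log2 difference in vehicle was 3.47 in place of 4.07 for Csf1 and 4.32 in place of 4.88 for Ccrl2. Fgl2, Hist1h2bc and Cd300c2 were 3.45, 4.07 and 3.26 higher in those held-out UMIs. That choice took 303 vehicle, 253 low dose and 0 high dose cells, and 83.1% of them were also inflammatory neutrophils on all UMIs. In the library labelled spleen Ccrl2 stood higher, at 1600 CPM in vehicle and 1901 CPM in low dose inflammatory neutrophils. The choice of cells leaned on Ccrl2 more there. With Ccrl2 left out of the score, 158 of its 212 cells were chosen again, against 528 of 556 in the library labelled liver.

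Il1b was the interleukin transcript with the highest level in these cells. It was at 2468 CPM in vehicle inflammatory neutrophils and 162 CPM in other vehicle neutrophils, a log2 difference of 3.93 (3.85 to 4.01). At the low dose it was at 4393 and 509.5 CPM, a difference of 3.11 (3.05 to 3.17). With cells thinned to 500 UMIs, 62.2% of vehicle and 82.2% of low dose inflammatory neutrophils had an Il1b UMI, against 16.6% and 30.2% of other neutrophils and 4.22% of high dose neutrophils. Unthinned, these shares were 94.7%, 99.2%, 52.2%, 62.2% and 37.6%. Lymphocyte barcodes, which should lack Il1b and had median depths of 4291, 4351 and 4791 UMIs, gave 0.997%, 0.777% and 0.202% after thinning. Cells with and without a Csf1 UMI had 3377 and 3251 CPM, and cells with and without a Ccrl2 UMI had 3434 and 3288 CPM. In the library labelled spleen these values were further apart, at 11434 and 8081 CPM for Csf1 and 9778 and 6507 CPM for Ccrl2. In the library labelled liver the spread of Il1b among inflammatory neutrophils was wide. The 10th percentile was 1, the median 7 and the 90th percentile 18 Il1b UMIs in vehicle cells, and 5, 14 and 31.5 at the low dose.

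Il1b followed the score in steps rather than at the cut. From the highest to the lowest quintile of neutrophils by score it was at 3324, 1599, 455, 48.2 and 71.4 CPM over all groups. Cd84, a self-binding adhesion receptor of the SLAM family, fell from 647 to 381, 146, 35.4 and 42.6 CPM, and Saa3, an acute-phase serum amyloid, from 10859 to 6030, 1449, 201 and 216 CPM. Camp, the cathelicidin of secondary granules, ran the other way, at 46.3, 1186, 6628, 13696 and 13069 CPM. Median depth moved along the quintiles too, at 3320, 5136.5, 9667.5, 21632.5 and 17007 UMIs, and its part in these steps was not tested. The 603 neutrophils with a score of 0 filled the lowest quintile and part of the one above it, so the score does not order those cells. Within a quintile the order of the high dose and vehicle groups was not fixed. In the second, the 11 high dose cells had Il1b at 561 CPM (439 to 705) against 858 CPM in vehicle cells, with scores of at most 0.0732% against 0.132% and a median of 12808 against 5187 UMIs. In the next, 58 high dose cells were at 338 CPM (302 to 378) against 244 CPM (225 to 264) in vehicle cells, and in the one after at 44.3 against 32.8 CPM. Low dose cells were above both in each of these, at 2422, 646 and 67.6 CPM.

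**Figure D3:**
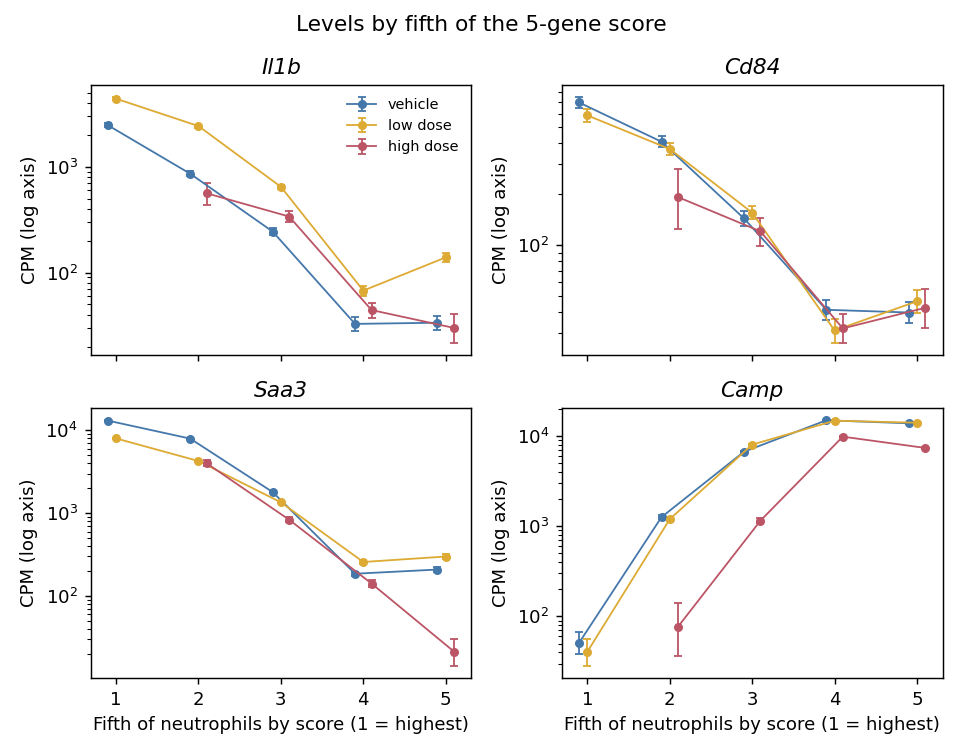
CPM (log axis) of Il1b, Cd84, Saa3 and Camp in each quintile of neutrophils by score, 1 being the inflammatory neutrophils, by hashtag group in the library labelled liver; whiskers are exact 95% Poisson intervals for counting error. Il1b fell from 2468 to 33.6 CPM in vehicle cells across the quintiles, and no high dose cell was in the first.

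Across the transcriptome, inflammatory neutrophils of the vehicle group had 2499 of 7687 genes at least 2-fold higher (32.5%) and 984 at least 2-fold lower (12.8%) than other neutrophils, counting genes with at least 50 UMIs over both sides and leaving out the score genes. Below, genes of a list are called higher or lower only when past 2-fold, and every level or difference is over UMIs summed across cells. At the low dose 2143 of 7409 genes were higher (28.9%) and 980 lower (13.2%). The median log2 difference over all genes was 0.57 in vehicle and 0.48 at the low dose. This lean to higher values depended on scaling: without the 20 most abundant genes in the total, 1423 were higher and 1428 lower in vehicle, with a median of 0.15, and 1156 higher and 1408 lower at the low dose, with a median of 0.10. Counts and medians of lists in vehicle are therefore to be read against the 32.5% higher, 12.8% lower and median of 0.57 of all genes, and list medians at the low dose against 0.48.

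Most of these differences were smaller against neutrophils of similar depth. The 165 other vehicle neutrophils between the 10th and 90th percentile of the inflammatory neutrophils' UMIs had a median score of 0.0743% and a median of 0 UMIs of Camp, Ngp and Ltf. The inflammatory neutrophils themselves were not limited to that range, so the depths were similar and not equal, with medians of 3185 against 3563 UMIs in vehicle and 3467 against 3717 at the low dose. Against them, 59 of 3368 genes were at least 2-fold higher (1.75%) and 25 lower (0.742%), and at the low dose, against 159 such cells, 49 of 2957 (1.66%) and 13 (0.440%). The Il1b difference was then 0.78 in vehicle and 0.17 at the low dose, and that of Cd84 0.40 and 0.37. Against other neutrophils outside the top 20% for Camp, Ngp and Ltf, which were deeper, with a median of 7785 UMIs in vehicle, 1647 of 6438 genes were higher (25.6%) and 537 lower (8.34%), and Il1b was 3.00 higher. At the low dose 1446 of 6291 genes were higher (23.0%) and 565 lower (8.98%) by that comparison.

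A few genes differed from neutrophils of similar depth in both groups, 5 higher and 7 lower of 2872 measured in both. They are named after their values were seen. The higher ones were Apoe, the lipid carrier apolipoprotein E (384 against 136 CPM in vehicle, and 1.30 on the log2 scale at the low dose), the C-type lectin Clec4a3 (1.47 in vehicle and 2.11 at the low dose), the histone H4 gene Hist1h4i (1.14 and 1.67), the troponin gene Tnni2 (1.04 and 1.45) and the small GTPase Arl3 (1.00 and 1.00). Apoe UMIs were in 87 of 320 vehicle cells, at most 33 in 1 cell. The lower ones were Ltf, Ngp and Camp, the NADPH oxidase subunit Cybb (-2.10 and -2.11), the MHC class II invariant chain Cd74 (-2.66 and -1.15), the interferon-induced Ifitm6 (-1.42 and -1.16) and Ly6g, the surface antigen of mature neutrophils (-1.30 and -1.59). In the similar-depth vehicle cells, a single cell held 215 of the 432 Camp UMIs, and a single cell held 130 of the 285 Ltf UMIs.

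**Figure D4:**
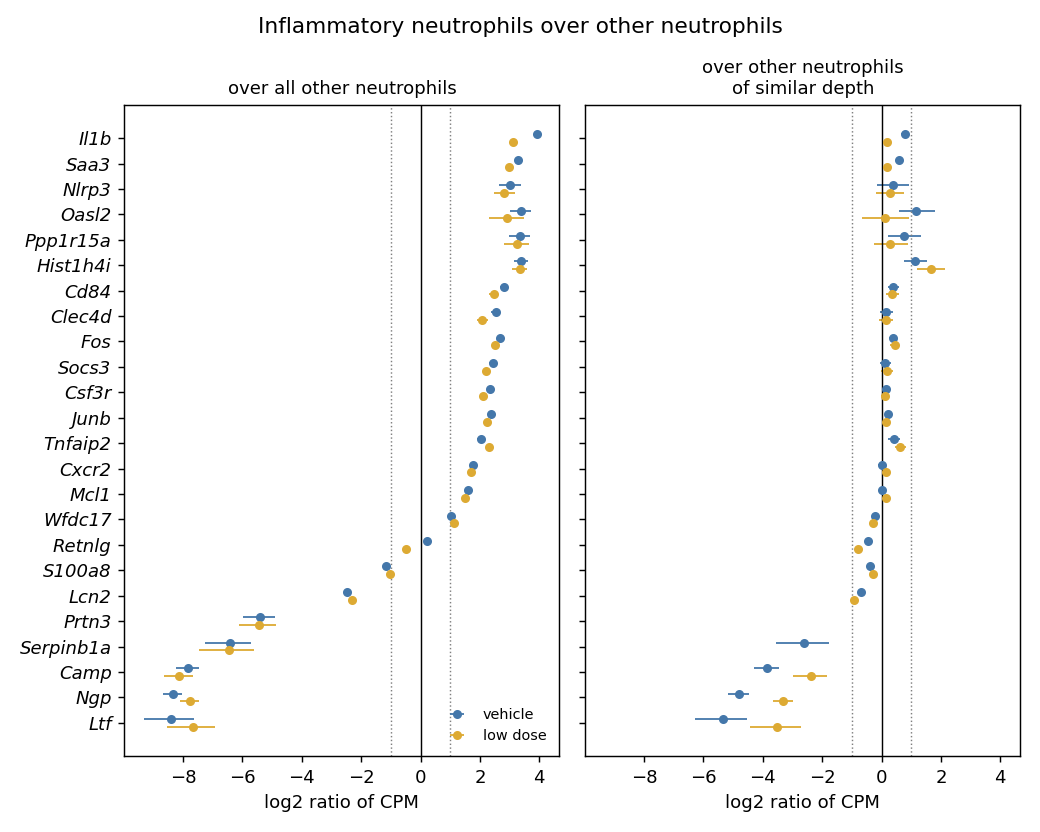
Log2 ratio of CPM in inflammatory neutrophils over all other neutrophils (left) and over other neutrophils of similar depth (right) for 24 genes in the vehicle and low dose groups; whiskers are exact 95% intervals for counting error, dotted lines mark 2-fold, and genes under 50 UMIs in a comparison are not drawn. Il1b moved from 3.93 on the left to 0.78 on the right in vehicle cells, while Camp, Ngp and Ltf were past 2-fold lower on both sides.

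Genes of the interleukin-1 family were higher together. In vehicle inflammatory neutrophils 8 of 8 measured members were at least 2-fold higher than in other neutrophils (median log2 1.73, all genes 0.57), and at the low dose 5 of 7 (1.42). They included the decoy receptor Il1r2 (665 against 213 CPM), the accessory chains Il1rap (2.39 on the log2 scale) and Il18rap (1.76), and Il1rn, which encodes the receptor antagonist. Il1a and Il1r1 had no UMI in the vehicle cells. Nlrp3, the inflammasome sensor, was 3.02 higher (96.4 against 11.9 CPM), and its list, with Casp4, Gsdmd and Aim2, had 4 of 6 genes higher (median 1.29). Against similar-depth vehicle cells 0 of 6 interleukin-1 genes were past 2-fold, with a median of 0.20 beside 0.13 over all genes. Of all genes 1.75% were higher and 0.742% lower in that comparison.

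Other secreted mediators were mixed. Of 7 chemokine ligands measured in vehicle, 4 were higher, among them Ccl6 (816 against 229 CPM) and Ccl4 (48.2 against 7.08), and Ccl5 was lower (median 1.83, all genes 0.57). Cxcl2, a ligand of the neutrophil receptor Cxcr2, was at 169 and 89.5 CPM, a difference of 0.92. No chemokine ligand was among the genes past 2-fold against similar-depth cells in both the vehicle and low dose groups. The monocyte chemoattractant Ccl2 was 4.43 higher, on 40 UMIs in 21 of 320 cells. Of 5 other cytokines, Tnfsf14 (LIGHT) was higher by 2.22 and Tnf lower, at 1.85 against 13.2 CPM (list median 0.38), and no UMI of Il6, Il10, Csf2 or Csf3 was found in the vehicle cells.

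Receptors for migration and growth factors were mostly higher. Of 10 trafficking receptors in vehicle, 7 were higher and Ccr2 was lower (median 1.72, all genes 0.57). Cxcr2 was at 1412 against 416 CPM, the selectin ligand Selplg at 890 against 271 CPM, and Ccr1 at 743 against 269 CPM. Csf3r, the G-CSF receptor, was 2.34 higher at 1577 CPM, and Csf1r, the receptor for the product of Csf1, was 2.72 higher at 108 CPM, with 3 of 5 colony-stimulating factor receptors past 2-fold (median 1.16). All 4 measured CD300 genes outside the score were higher (median 1.92), the most abundant being the inhibitory receptor Cd300lf (741 against 227 CPM). Against similar-depth vehicle cells 0 of 9 trafficking receptors, 0 of 5 growth factor receptors and 0 of 4 CD300 genes were past 2-fold. These counts are near the share of all genes there (1.75% higher and 0.742% lower). At the low dose Cxcr4 and Cd300a were past 2-fold, where 1.66% of all genes were higher and 0.440% lower.

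AP-1 genes and most genes of the SOCS and STAT list were higher in the same cells. Of 15 genes of the AP-1 and immediate early list, 14 were higher in vehicle (median 2.35, all genes 0.57), as were 15 of 16 at the low dose (2.12). The AP-1 subunit gene Junb was at 2787 against 535 CPM and Fos at 1446 against 225 CPM. Of 15 NF-kB genes, 9 were higher and Nfkbie lower (median 1.14), with Tnfaip2 at 664 against 163 CPM and the inhibitor gene Nfkbia, at 511 against 287 CPM, short of 2-fold. Of the SOCS and STAT list, 6 of 7 were higher (median 1.87), among them Socs3 (2.42), a feedback inhibitor of cytokine receptors. Ppp1r15a, which encodes the stress-induced phosphatase subunit GADD34, was 3.34 higher. Heat shock and chaperone genes were mixed, with 3 of 6 higher, Ddit3 (CHOP) by 2.68, and Hsp90ab1 lower (median 0.78, all genes 0.57). Against similar-depth vehicle cells the medians were 0.20 for AP-1, 0.04 for NF-kB, 0.19 for SOCS and STAT and 0.20 for heat shock genes, with 0 genes of the 4 lists past 2-fold. Over all genes the median was 0.13 there, with 1.75% higher and 0.742% lower.

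Interferon-stimulated genes were higher as well, 11 of 13 in vehicle (median 2.36, all genes 0.57) and 10 of 11 at the low dose (1.93). The 2'-5' oligoadenylate synthetase-like gene Oasl2 was 3.38 higher (112 against 10.8 CPM) and Isg15 was 2.60 higher. Ifitm1 was the most abundant, at 14566 against 5596 CPM, while Ifitm3 was at 1988 against 2817 CPM. This list kept 3 of 11 genes past 2-fold against similar-depth vehicle cells, Ifit1, Oasl2 and Ifi47, with a median of 0.20. These 3 were not among the 5 genes higher at similar depth in both the vehicle and low dose groups. Over all genes 1.75% were higher and 0.742% lower there, with a median of 0.13. Against all other vehicle neutrophils, which were deeper, the Z-nucleic acid sensor gene Zbp1 was 2.01 higher (107 against 26.5 CPM). Ripk3, its partner kinase in necroptosis, was lower. Of that list 3 of 5 genes were higher (median 1.41), and no Mlkl UMI was found. No gene of that list was among those past 2-fold against similar-depth cells in both groups.

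Most survival, suppressive and p53 genes measured were higher. Of 12 BCL2 family and survival genes, 7 were higher in vehicle, among them Mcl1, which protects neutrophils from apoptosis (1711 against 563 CPM), and the pro-apoptotic Bcl2l11 (2.73), while Bcl2 was lower (median 1.17, all genes 0.57). Of 10 genes tied to suppressive function, 8 were higher (median 1.51). Among them were Cd84 (697 against 99.4 CPM, a difference of 2.81), the lectin receptor genes Clec4d (2.53) and Clec4e (1.47), Wfdc17 (23571 against 11597 CPM), Nos2, Cd274 and Trem1. Ido1 had no UMI. Of 6 p53 targets, 5 were higher (median 1.46), Cdkn1a (p21) by 2.47 and Trp53inp1 by 1.65. The FACT subunit genes Ssrp1 and Supt16 were at 15.8 and 57.5 CPM against 30.02 and 40.7 CPM, both within 2-fold, and at the low dose Ssrp1 was past 2-fold lower (-1.69). Against similar-depth vehicle cells, the only genes of these 4 lists past 2-fold were Pmaip1 and Cdkn1a, both higher, beside 1.75% of all genes. Neither was among the genes higher at similar depth in both the vehicle and low dose groups.

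Granule genes were the lowest group. All 4 primary granule genes were lower in vehicle inflammatory neutrophils (median -6.32, all genes 0.57), with the proteinase 3 gene Prtn3 at 27.8 against 1183 CPM, Elane, the neutrophil elastase gene, at 1.85 against 428 CPM, Ctsg at 0.927 against 116 CPM and Mpo at 1.85 against 94.8 CPM. Of 13 secondary and tertiary granule genes 10 were lower and 0 higher (median -2.48). The lactoferrin gene Ltf was at 12.1 against 4074 CPM (-8.40), Ngp at 70.5 against 22881 CPM (-8.34), Camp at 51.0 against 11628 CPM (-7.83), Serpinb1a, an elastase inhibitor gene, at 13.9 against 1200 CPM and Lcn2 at 2402 against 13437 CPM. Hp, encoding haptoglobin, was at 3760 and 2816 CPM. The 10 lowest genes also held Mki67 at 1.85 against 111 CPM, Pclaf at 2.78 against 190 CPM and the replication-dependent linker histone gene Hist1h1b at 2.78 against 328 CPM. No inflammatory neutrophil was in the top 20% of neutrophils by Camp, Ngp and Ltf, and the highest share of these 3 genes in any of them was 0.170% of UMIs. Against similar-depth vehicle cells 5 of 12 secondary and tertiary granule genes were still 2-fold lower (median -0.61), beside 0.742% of all genes. No primary granule gene was among those past 2-fold at similar depth in both the vehicle and low dose groups, where genes under 50 UMIs were not compared.

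Histone, hypoxia and stefin genes stood near the background of all genes or below it. In vehicle 5 of 12 measured members other than the score gene were higher, Hist1h4i by 3.38 (264 against 25.4 CPM), and 2 were lower, one of them H2afz (-1.74), with a median of 0.64, close to the 32.5% higher, 12.8% lower and median of 0.57 of all genes. The replacement histone genes H3f3a and H3f3b were 0.37 and 0.91 higher. Of 14 hypoxia and glycolysis genes 5 were higher and Pgk1 lower, again near the 32.5% of all genes that were higher, with a median of 0.15, and with Gapdh at 1150 against 2007 CPM and Ldha at 355 against 545 CPM. Of 4 stefin genes, Stfa3 was lower and 0 were higher (median -0.78), and 66 inflammatory neutrophils (11.9%) were also in the top 20% by stefin genes.

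The cells carried neutrophil markers, though Ly6g was lower than in other neutrophils. Markers of other leukocytes summed to low levels, and those of macrophages were higher than in other neutrophils. S100a8 and S100a9, which the rule used, had a median of 16.6% of UMIs in vehicle inflammatory and 31.8% in other vehicle neutrophils. Of the 7 neutrophil markers, Csf3r and Cxcr2 were higher and S100a8 and Ly6g lower. Retnlg was at 9481 and 8057 CPM. The summed levels were 134 CPM for 6 monocyte markers (115 in other neutrophils, Csf1r the most abundant, Fn1 at 0), 56.6 CPM for 6 macrophage markers (22.6, C1qb), 19.5 CPM for 4 T cell markers (62.5, Cd3d), 15.8 CPM for 4 B cell markers (21.2, Cd79a), 3.71 CPM for 4 NK cell markers (46.6, Ncr1 and Klrb1c at 0) and 0.927 CPM for 5 dendritic cell markers (1.17, all but Clec9a at 0). Eosinophil genes Epx, Prg2 and Il5ra were at 0, while Siglecf, which activated neutrophils can also carry, was at 29.7 against 3.85 CPM in vehicle and 35.9 against 3.38 CPM at the low dose. Basophil and mast cell markers summed to 1.85 CPM (Mcpt8, the others at 0), tumor epithelial markers to 5.56 CPM (Krt7, with Krt8 and Krt18 at 0), and hepatocyte markers to 0. The similar monocyte sums hid opposite directions, since Csf1r was higher and Ccr2 lower in inflammatory neutrophils. The part of these other markers in the differences was not tested.

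Hemoglobin led the list of higher genes through a single cell. Hba-a1, Hbb-bs, Hbb-bt and Hba-a2 were 5.93, 5.59, 5.23 and 5.20 higher in vehicle inflammatory neutrophils, but 3268 of their 3442 UMIs came from 1 cell. Without barcodes holding at least 50 such UMIs they summed to 162 CPM in inflammatory and 48.8 CPM in other vehicle neutrophils. The platelet gene Pf4, the most abundant platelet marker, had 58 of its 62 UMIs in 1 cell. Saa3, by contrast, was spread over 236 of 320 vehicle cells and stood at 13148 against 1336 CPM, a difference of 3.30. Mustn1, also among the 10 highest genes, was at 110 against 10.5 CPM, and Orm1, the acute-phase orosomucoid gene, was among the 10 lowest at 0.927 against 79.3 CPM.

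The direction of these differences was mostly the same in the other library, whose hashtags mark the same 3 treatments. There, 856 of 3878 genes were higher (22.1%) and 733 lower (18.9%) in vehicle inflammatory neutrophils, and 834 of 4549 (18.3%) and 778 (17.1%) at the low dose. Without the 20 most abundant genes in the total, this balance reversed there, to 668 higher and 923 lower in vehicle and 543 higher and 970 lower at the low dose. Of the 2499 genes higher in vehicle, 1035 were measured in the library labelled spleen, and 94.1% were higher there too, where 54.7% of all genes were. Of the 984 lower ones, 504 were measured and 96.0% were lower, where 45.3% of all genes were. Il1b was at 6708 against 352 CPM there in vehicle (4.25) and 10617 against 1127 CPM at the low dose (3.24). The same percentile rule for depth, applied within that library, gave deeper reference cells. Their medians were 3493 against 2844 UMIs in vehicle and 3609.5 against 2774 at the low dose. Against them the Il1b difference was 1.35 in vehicle and 0.92 at the low dose. In vehicle 24 of 709 genes were higher (3.39%) and 10 lower (1.41%), and at the low dose 28 of 1674 (1.67%) and 14 (0.836%).

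Within inflammatory neutrophils, the low dose group differed from the vehicle group in few genes. Of 3729 genes, 24 were at least 2-fold higher (0.644%) and 82 lower (2.20%), and of 1213 genes with at least 200 UMIs, 0 were higher and 14 lower. Il1b was 0.83 higher at the low dose (0.76 to 0.90). The largest rises under the rule for named genes were in Zfp217, a zinc finger regulator (83.4 against 27.8 CPM, 1.58), Cdc42ep2, an effector of the GTPase CDC42 (127 against 44.5, 1.52), Slc11a1, the phagosomal metal transporter NRAMP1 (130 against 58.4, 1.15), B430306N03Rik (140 against 67.7, 1.05) and Fam111a (105 against 51.9, 1.02). Fkbp5, a glucocorticoid-induced cochaperone gene, was 2.50 lower (17.4 against 98.3 CPM), and it was seen in 92 of 320 vehicle and 15 of 236 low dose cells. The other 4 of the 5 lowest were the hemoglobin genes of the single vehicle cell.

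Interferon-stimulated genes leaned lower at the low dose, with 4 of 11 past 2-fold (Ifit1, Oasl2, Ifi47 and Irgm1) and a median of -0.81. Over all genes 2.20% were past 2-fold lower, with a median of -0.04. Oasl2 was at 44.0 against 112 CPM (-1.35), Zbp1 at 33.6 against 107 CPM (-1.67), and Isg15, at 193 against 207 CPM, differed by -0.10. The decoy receptor Il1r2 was 1.14 lower and Ccl4 2.38 lower, while Cxcl2 was 0.73 higher. Among the score genes Ccrl2 was 1.17 lower (69.5 against 156 CPM) and Csf1, Fgl2, Hist1h2bc and Cd300c2 were within 0.21 of no change. Saa3 was 0.72 lower and Junb 0.03 higher. The 11 measured secondary and tertiary granule genes and the 9 trafficking receptors had no member past 2-fold. Over all genes 0.644% were higher and 2.20% lower, so these counts are near the share of all genes. In the library labelled spleen the granule gene Camp was past 2-fold lower, at -1.97 (-2.60 to -1.36). In the library labelled spleen 29 of 1347 genes were higher (2.15%) and 34 lower (2.52%) at the low dose. Short of 2-fold there, Il1b was at 0.66 on the log2 scale, Il1r2 at -0.75, Ccl4 at -0.94, Saa3 at 0.26 and Nfkbia at 0.76. Cxcl2 was at -0.06 there (-0.13 to 0.01). Of the score genes there, which chose the cells, Ccrl2 was at 0.25, Csf1 at 0.84 (0.32 to 1.39) and Cd300c2 at -0.52 (-0.93 to -0.10). The intervals of Fgl2 (0.25) and Hist1h2bc (0.39) included 0.

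**Figure D5:**
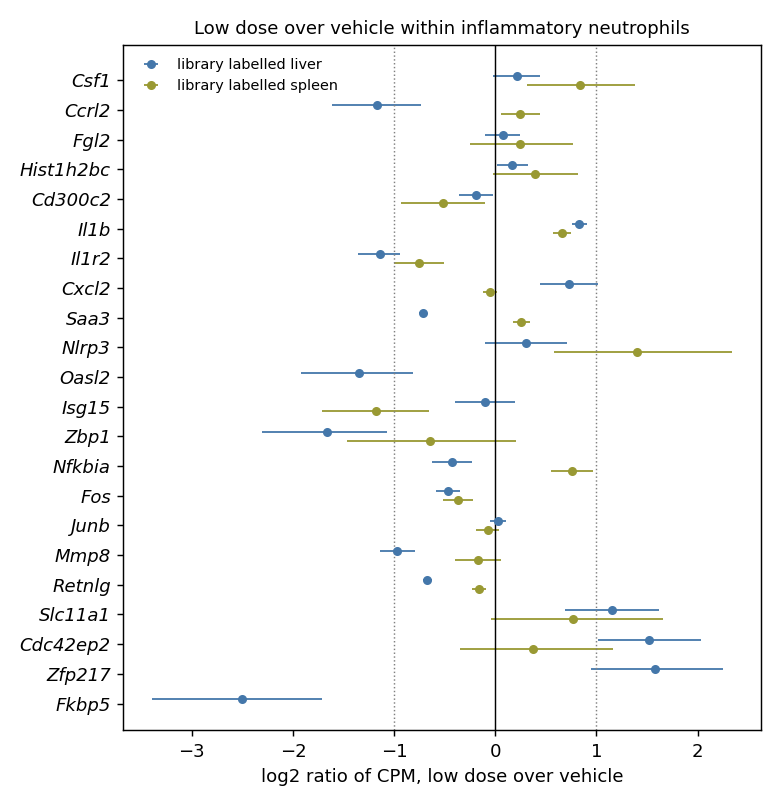
Log2 ratio of CPM at the low dose over vehicle within inflammatory neutrophils for 22 genes in each library; whiskers are exact 95% intervals for counting error, dotted lines mark 2-fold, and genes under 50 UMIs in a library are not drawn. Il1b lies to the right of 0 in both libraries (0.83 and 0.66), and Saa3 lies on opposite sides (-0.72 and 0.26); the 5 score genes chose the cells.

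No high dose cell met the cut in the library labelled liver, so the high dose could not be compared with vehicle within inflammatory neutrophils there. In the library labelled spleen, the 5 high dose cells that met its cut had Il1b at 6478 CPM (5384 to 7729), against 6708 CPM (6347 to 7084) in the 59 vehicle cells, and the intervals overlap. The rest of the high dose values are from the library labelled liver. The 47 highest-scoring high dose cells, the top quintile of that group, had a median of 14950 UMIs. Against other high dose neutrophils, 408 of 5203 genes were at least 2-fold higher in them (7.84%) and 821 lower (15.8%). Il1b was at 415 against 57.1 CPM (2.86), Cd84 at 157 against 38.2 CPM (2.04), Saa3 at 1682 against 125 CPM (3.75), Csf1 at 46.6 against 5.79 CPM and Camp at 228 against 8655 CPM (-5.24). Against the 253 highest-scoring vehicle cells, 132 of 2899 genes were at least 2-fold higher (4.55%) and 957 lower (33.0%), with Il1b 2.63 lower, Saa3 2.90 lower, Ccrl2 at 5.82 against 179 CPM, and Ngp at 4529 against 70.6 CPM. The top quintile of the high dose group thus had lower scores, greater depth and a higher level of the granule gene Ngp than its vehicle counterpart.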

How the data were processed

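Single-cell RNA was captured on the 10x Genomics platform. The authors deposited, for each library, a matrix of raw UMI counts per gene and hashtag, made with Cell Ranger (6.0.0 in the submitters' processing notes, 5.0.0 in the matrix header) against mm10. All 9591 and 4830 barcodes (at least 500 gene UMIs each) were kept with no further filter. Hashtag counts assigned the groups as described, and 680 barcodes of the library labelled liver had none. UMIs were summed over the cells of a group and divided by their total gene UMIs (CPM). Ratios of sums have exact 95% intervals and needed at least 50 UMIs over both sides. A group is 1 pool, so no model was fitted.

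Named genes were the score genes, Il1b and Cd84, the 10 highest and 10 lowest vehicle ratios with at least 200 UMIs and the same direction at the low dose, the 5 highest and 5 lowest low dose ratios with at least 100 UMIs, and the most abundant members of each gene list. The rule asked for the same direction in all 3 groups, which the high dose, with no inflammatory neutrophils, could not give. Members and lists were chosen with earlier results of these data known. Mitochondrial and sex-linked genes are not named. A few members of the lists are counted but not reported here by name. Of 32285 genes, 32158 were placed by the GENCODE annotation. Scrublet marked 248 barcodes (2.59%, 1 of them an inflammatory neutrophil) of the library labelled liver, but just 1 of the other. Whether the caller worked there was not tested, and no doublets were removed. Python 3.11.15, numpy 2.4.6, scipy 1.17.1, scanpy 1.11.5 and, for HTODemux, R 4.3.3 with Seurat 5.3.0 were used. The ratio and selection steps were tested on simulated data. Alternatives covered the neutrophil limit, the size of the top share, each score gene left out, thinning, hashtag calling, UMI minimum, scaling and reference cells. The similar-depth reference and the removal of hemoglobin-rich barcodes were chosen after seeing the data.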

Additional observations from a re-analysis of the deposited data

Results flagged for a closer look

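The low dose and vehicle shares of inflammatory neutrophils differed in opposite directions in the libraries, by -6.82 percentage points in the one labelled liver and 6.78 in the one labelled spleen. The combined interval of the second was -1.87 to 15.1. It includes 0 but is wider than an interval made for the difference itself, so it does not decide the direction. The first was 0.0126 with the neutrophil limit at 20%. The difference between the libraries was not tested. Neutrophils without an assigned hashtag group, used in no comparison, held 18 of 206 inflammatory neutrophils at the same cut (8.74%, interval 5.26 to 13.5).

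For 3 of the named genes with at least 50 UMIs in both comparisons, the log2 difference of inflammatory over other neutrophils lay on opposite sides of 0 in the vehicle and low dose groups with both counting intervals clear of 0, and these contrasts between groups were not tested. Fam111a was at -0.41 in vehicle and 0.53 at the low dose. Mmp8, which encodes neutrophil collagenase, was at 0.44 and -0.76, and Retnlg, a resistin-like neutrophil gene, at 0.23 and -0.49.

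By the same reading, for 4 named genes the low dose over vehicle difference within inflammatory neutrophils lay on opposite sides of 0 in the libraries labelled liver and spleen with both intervals clear of 0, also untested. Ccrl2, a score gene whose values are a description because they helped to choose the cells, was at -1.17 and 0.25. Saa3 was at -0.72 and 0.26, Ngp at 0.48 and -0.33, and Nfkbia at -0.43 and 0.76.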

How the results depend on the processing

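No paired analysis was possible because each group is 1 pool in each library. The low dose minus vehicle share (-6.82 points) was 0.0126 with the neutrophil limit at 20%. It stayed negative in the other 14 of 15 alternatives, down to -8.33. The high dose minus vehicle share (-25.3) was -13.3 for the top 10% and -35.6 for the top 30%. A cut within each group gives no share difference. The Il1b difference in vehicle (3.93) stayed above 0 in every alternative run, at 2.96 with thinned scoring, 3.51 and 4.11 for the top 10% and 30%, 3.73 with a cut within groups, 3.79, 3.84, 3.71, 3.79 and 3.77 without Csf1, Ccrl2, Fgl2, Hist1h2bc or Cd300c2 in the score, 3.62 with the limit at 5%, 3.52 without the 20 most abundant genes, 3.00 against neutrophils low in Camp, Ngp and Ltf, 3.81 in held-out UMIs, 2.50 with means of each cell's CPM and 0.78 at similar depth. At the low dose (3.11) it was 3.05 with HTODemux, 2.49 thinned, 3.00 and 3.43 for the top 10% and 30%, 3.17 within groups, 2.95 and 3.31 with the limit at 5% and 20%, 2.72 without the 20 genes, 2.31 against low-Camp neutrophils, 1.88 with cell means and 0.17 at similar depth. Genes past 2-fold in vehicle (3483) were 1888 with at least 200 UMIs, 2184 against low-Camp neutrophils and 84 at similar depth, and at the low dose (3123) 4697 with at least 10 UMIs, 1679, 2011 and 62. Low dose against vehicle (106) gave 759 with at least 10 UMIs, 14 with at least 200 and 60 on held-out choice. Labelled spleen, 29 genes higher and 34 lower became 40 and 79 with thinned scoring and 43 and 82 for the top 30%. The balance turned there with the limit at 20%, to 38 higher and 13 lower. At least 10 UMIs gave 316 and 380 there, and at least 200 gave 2 and 3. Il1b at the low dose over vehicle (0.83 labelled liver, 0.66 labelled spleen) stayed above 0 in every alternative run but passed 2-fold at 1.19 labelled liver with the limit at 20%, and at 1.09 thinned and 1.01 for the top 30% labelled spleen, where it was 0.36 with the limit at 5%. The median depth of 3185 UMIs was 4368 with the limit at 20%. The AP-1 median (2.35) was 1.62 against low-Camp neutrophils and 0.20 at similar depth, the interleukin-1 median (1.73) 1.32 without the 20 genes, 1.16 and 0.20, and the secondary granule median (-2.48) -0.61 at similar depth. The causes were not tested. About 7 score UMIs per cell set the precision of the cut, and genes under 50 UMIs could not be compared.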
